A study of Mus musculus with 7 samples.

Results

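Apoe, Lrp1 and Mylip are a secreted lipid carrier, one of its receptors and an enzyme that removes receptors of this family, here followed in astrocytes of 7 mice. The 3 genes were chosen by symbol in the authors' deposited fold table. They are 3 of the 1594 genes that this table names among 22193 features measured, and each had 1 probe set. The table keeps a probe set only if CETP mice on cholesterol and CETP mice labelled as standard diet differed by 1.4-fold or more. That difference therefore chose the members and is described below without a test.

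Astrocytes were isolated from whole brains with an ACSA-2 magnetic kit, and each animal's RNA was hybridized to its own Affymetrix array. The CETP line, B6.CBA-Tg(CETP)5203Tall/J, carries the human CETP gene. Its product shuttles cholesteryl esters among plasma lipoproteins, and mice have no such gene of their own. Per the series' design text, cholesterol in the diet induces the transgene. Wild-type mice ate a standard diet (n = 2, numbered 2 and 3). One group of CETP transgenic mice ate 1% cholesterol (n = 3, numbered 1, 2 and 3), and another carries a standard-diet label (n = 2, numbered 4 and 5). The cholesterol diet ran for 2 months, from an age of 2 to 4 months. The growth protocol describes only the cholesterol diet for the transgenic line, so for the last group the label is the sole source of its diet. Sex, and the age of the animals on standard diet, were not given in the sources used here.

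In the brain, astrocytes secrete apolipoprotein E on small lipoprotein particles that carry cholesterol to neurons and other cells. Receptors of the LDL receptor family bind these particles and take them up, and LRP1 is a large member that recycles quickly through endosomes. MYLIP, also called IDOL, is a ubiquitin ligase that marks receptors of this family for degradation in lysosomes. Liver X receptors, which sense oxidized sterols, switch on both Apoe and Mylip in many cells. SREBP2, a transcription factor released from the membrane when sterols are low, drives cholesterol synthesis and uptake.

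The promoters are shown because the 3 genes have different core elements in the window just before the start of transcription. RefSeq (GRCm38.p6) gave 3 start sites for Apoe, 1 for Lrp1 and 1 for Mylip, and the 250 bases before a start are printed 5′ to 3′ on the gene's strand, for Apoe at the first start listed. The windows lie at chr7:19699189-19699438 (minus strand), chr10:127621149-127621398 (minus strand) and chr13:45389492-45389741 (plus strand). Capitals mark matches on either strand to any of 5 motifs, none of which overlap in the printed windows. The first is the CCAAT box, which is bound by the nuclear factor Y complex at many promoters. The second is the GC box, searched by the letters GGGCGG and bound by SP1 and its relatives. The third is the TATA box of the core promoter, to which the general initiation factor TFIID binds and which was searched by the letters TATAAA. The fourth is a sterol regulatory element, the kind of site that SREBP proteins bind, searched as TCACNCCAC. The fifth is a liver X receptor element, a direct repeat spaced by 4 bases, searched as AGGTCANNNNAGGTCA.
Apoe: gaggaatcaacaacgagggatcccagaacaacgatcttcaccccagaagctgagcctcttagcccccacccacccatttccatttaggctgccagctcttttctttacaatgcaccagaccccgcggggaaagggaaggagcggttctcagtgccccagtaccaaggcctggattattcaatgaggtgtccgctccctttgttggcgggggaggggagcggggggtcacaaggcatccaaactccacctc
Lrp1: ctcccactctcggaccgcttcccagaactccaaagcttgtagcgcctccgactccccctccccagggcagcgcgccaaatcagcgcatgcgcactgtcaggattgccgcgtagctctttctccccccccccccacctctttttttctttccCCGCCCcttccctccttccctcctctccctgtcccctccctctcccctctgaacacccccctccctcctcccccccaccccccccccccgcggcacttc
Mylip: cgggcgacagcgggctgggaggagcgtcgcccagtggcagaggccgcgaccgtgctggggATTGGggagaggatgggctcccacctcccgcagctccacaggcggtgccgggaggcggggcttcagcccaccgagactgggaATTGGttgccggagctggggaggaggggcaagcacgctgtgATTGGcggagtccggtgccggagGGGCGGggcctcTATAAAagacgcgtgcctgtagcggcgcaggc

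The Mylip window held 3 CCAAT boxes on the opposite strand, starting 190, 108 and 67 bases before the start site. It also held a GC box at 44 bases and a TATA box at 32 bases on the gene's own strand. The Lrp1 window held 1 GC box, on the opposite strand 99 bases before the start. The printed Apoe window matched none of the 5 motifs. Of the windows at the other Apoe start sites, which are not printed, the one at the second start listed held 2 overlapping TATA box matches on opposite strands, and the one at the third held no match to any of the motifs. Of 32851 promoter windows of this length, 32.7% held a GC box, 33.8% a CCAAT box and 12.4% a TATA box. The sterol regulatory element occurred in 1.05% and the liver X receptor element in 0.0152% of windows, and neither was found in those printed.

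Values are the authors' log2 values, so a step of 1 is a 2-fold difference. Array medians ran from 7.51 to 7.59, and the medians of the negative control probes, which match no transcript, from 7.48 to 7.69. Only 2 of 12 astrocyte markers fixed for this work carried a name. These were the glutamate transporter Slc1a3 and the transcription factor gene Sox9, and both lay above the negative control median on all 7 arrays. In an isolate of many cells, fewer cells of a type and less RNA per cell cannot be told apart. The hybridization spike-in controls, which are added at fixed amounts, averaged 10.8 to 11.0 on the wild-type arrays, 11.21 to 11.77 on the cholesterol-diet arrays and 11.02 to 11.22 on the CETP standard-diet arrays.

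Apoe was strongly expressed on every array and was highest in CETP mice labelled as standard diet. It measured 16.72 and 16.97 in wild-type replicates 2 and 3. In CETP mice on cholesterol it measured 16.53, 16.85 and 16.39 in replicates 1, 2 and 3. With the standard-diet label it measured 16.95 and 17.46 in replicates 4 and 5. All 7 values lay 8.84 to 9.92 above the negative control median of their array. Wild type sat between the CETP groups and overlapped both, and the single highest value was CETP standard-diet replicate 5.

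Lrp1, the endocytic receptor, varied in the opposite sense. Wild-type replicates 2 and 3 gave 15.03 and 15.02, an SD of 0.0062. The cholesterol-diet arrays gave 15.24, 14.86 and 15.59, which is 1 array below both wild-type values and 2 above them. The CETP standard-diet arrays gave 15.05 in replicate 4 and 14.42 in replicate 5. Replicate 5, highest for Apoe, was thus lowest for Lrp1, and cholesterol-diet replicate 3 was lowest for Apoe and highest for Lrp1. Lrp1 lay 6.87 to 8.04 above the negative control median of each array.

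Mylip, the receptor ligase, ran from 11.02 to 11.69 on 6 arrays and was higher on 1. It measured 11.49 and 11.02 in wild type and 11.36, 11.31 and 11.69 on the cholesterol diet. In the CETP standard-diet group replicate 4 measured 12.84 and replicate 5 measured 11.53. Replicate 5 lay within the range of the cholesterol-diet arrays, while replicate 4 stood 1.15 above the next highest of the 7 values. Mylip lay 3.33 to 5.24 above the negative control median, and 3.08% to 10.3% of negative controls reached its value on the same array. For Apoe and Lrp1 that share was at most 0.67% and 1.11%.

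**Figure D1:**
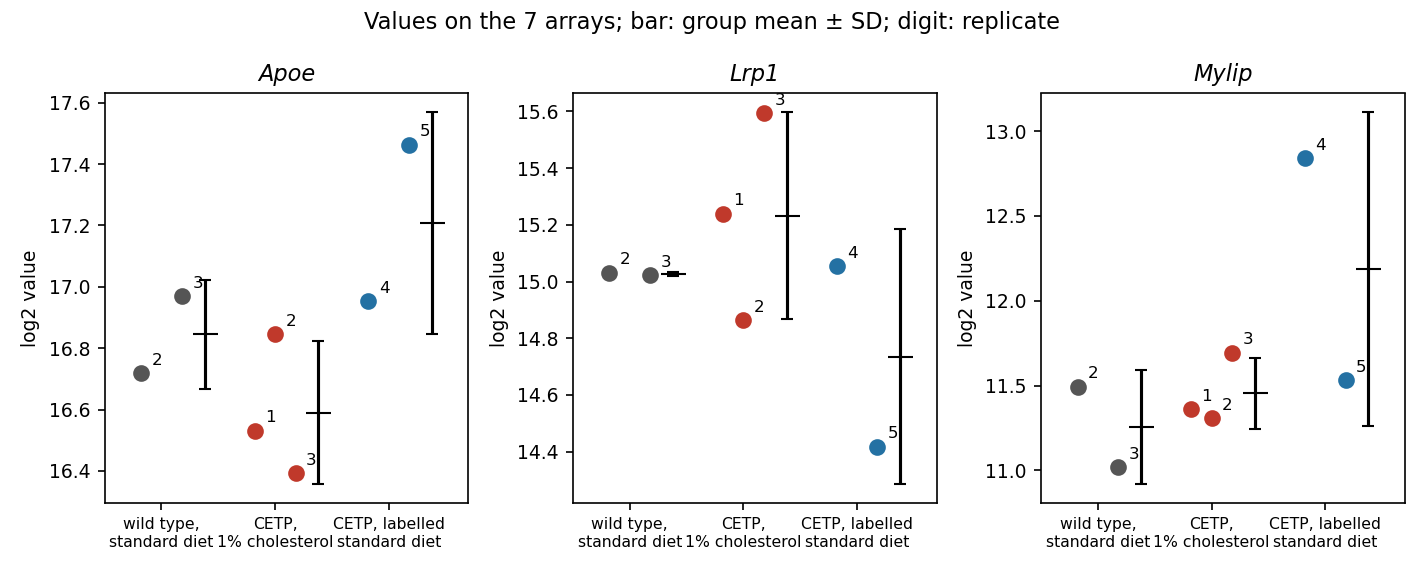
Log2 values of Apoe, Lrp1 and Mylip on the 7 arrays, with each point marked by its replicate number and the bar giving the group mean ± SD (n = 2, 3 and 2). Replicate 5 of the CETP standard-diet group is highest for Apoe (17.46) and lowest for Lrp1 (14.42), and replicate 4 alone is high for Mylip (12.84).

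The comparison stated by the series' design sets CETP mice on cholesterol against wild type, with genotype and diet changed together. Apoe averaged 16.59 ± 0.23 (SD, n = 3) in these mice and 16.84 ± 0.18 (SD, n = 2) in wild type. The log2 difference was -0.25, with a 95% interval from -0.79 to 0.28. Lrp1 averaged 15.23 ± 0.36 against 15.03 ± 0.01, a difference of 0.21 (-0.41 to 0.82). Mylip averaged 11.45 ± 0.21 against 11.26 ± 0.34, a difference of 0.20 (-0.60 to 1.00). None of the 3 passed limma, with adjusted p-values of 0.772, 0.846 and 0.894 over all features. Of the 22193 features 0% passed, and 1924 had an unadjusted p under 0.05. A share of 0.05 of all features is expected under that limit if nothing differs. With the spike-in level as a covariate the differences of Apoe (0.016) and Lrp1 (-0.19) turned in direction, and that level was higher on all 3 cholesterol-diet arrays than on both wild-type arrays. Without wild-type replicate 3 the Mylip difference turned to -0.041.

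The second comparison sets the CETP standard-diet label against wild type. Mylip averaged 12.19 ± 0.93 (SD, n = 2) in the CETP mice and 11.26 ± 0.34 (SD, n = 2) in wild type. This is 1.91-fold, or 0.93 on the log2 scale (95% interval 0.05 to 1.81). Both CETP values lay above both wild-type values, as they did for 12.1% of all features. Of all features 1.25% had at least this absolute difference, and limma gave Mylip an adjusted p of 0.925. Without CETP standard-diet replicate 4 its difference was 0.28, and without replicate 5 it was 1.59. Apoe differed by 0.36 (-0.23 to 0.95) and Lrp1 by -0.29 (-0.96 to 0.38), with adjusted p-values by limma of 0.929 and 0.955, and 0% of features passed, with 1175 at an unadjusted p under 0.05. Both rested on replicate 5, without which Apoe differed by 0.11 and Lrp1 by 0.027.

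The names were selected on the CETP diet groups, and a comparison of either group with wild type shares those arrays. The mean of all 5 CETP arrays, each given the same weight, is uncorrelated with that selection if the arrays have equal variance, and it asks about the CETP line as a whole against wild type. Apoe averaged 16.84 ± 0.42 (SD, n = 5) in CETP mice and 16.84 ± 0.18 (SD, n = 2) in wild type. Its log2 difference was -0.0076. Lrp1 averaged 15.03 ± 0.44 against 15.03 ± 0.01, a difference of 0.0068. Their 95% intervals ran from 0.71-fold to 1.40-fold for Apoe and from 0.68-fold to 1.48-fold for Lrp1. Among all features, 97.6% had a larger absolute difference than Apoe and 97.8% a larger one than Lrp1, and 11.2% one at least as large as that of Mylip. The SDs over the 5 CETP arrays hold the difference between the CETP groups for which the genes were listed. Mylip differed by 0.49 (95% interval -0.24 to 1.23), and by 0.22 without CETP standard-diet replicate 4. Adjusted p-values by limma were 0.997 for Apoe, 0.998 for Lrp1 and 0.707 for Mylip, and 0% of features passed, with 1845 at an unadjusted p under 0.05.

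**Figure D2:**
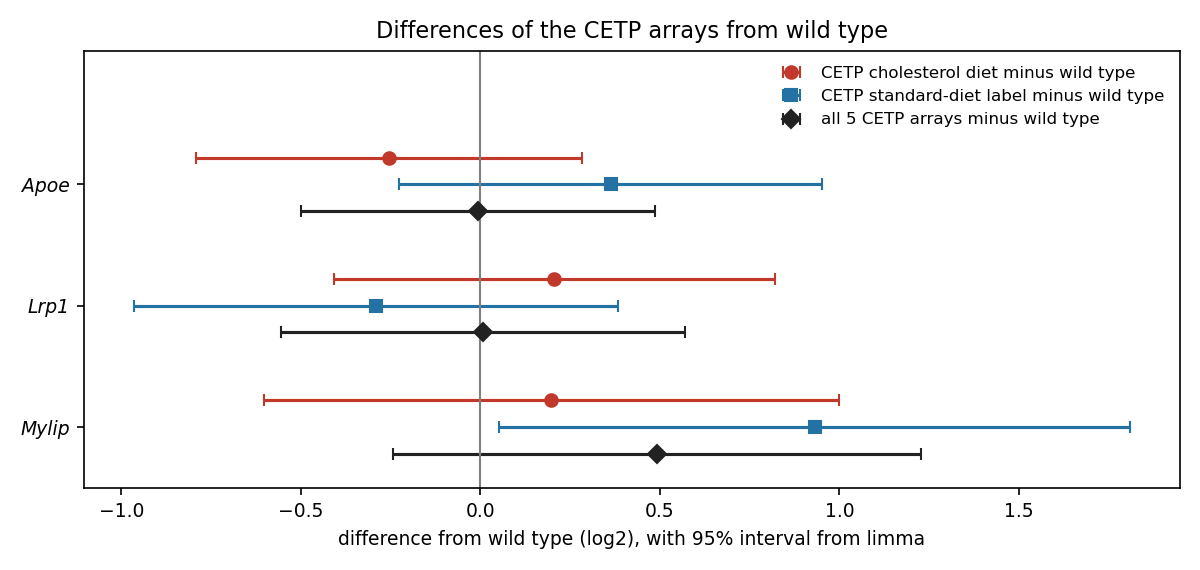
Log2 differences from wild type of Apoe, Lrp1 and Mylip with 95% intervals from limma, for the cholesterol-diet arrays, the CETP standard-diet arrays and all 5 CETP arrays. The black points of Apoe (-0.0076) and Lrp1 (0.0068) lie at 0, between the values of the CETP groups, and the only interval clear of 0 is that of Mylip with the standard-diet label (0.05 to 1.81).

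The table's folds come from these same CETP arrays, so a difference between the CETP groups was fixed by the choice of the members. Apoe averaged 0.62 lower on the log2 scale on cholesterol (16.59 against 17.21), and the 3 cholesterol-diet values lay below both standard-diet values. Arrays did not overlap in this direction for 8.54% of all features. Mylip averaged 1.66-fold higher with the standard-diet label and Lrp1 1.41-fold higher on cholesterol, and for both the arrays overlapped. These folds come from group means, while the table's limit of 1.4-fold applies to Tukey biweight averages, which weigh outlying arrays down. The measures can differ, as for the named gene Lrp10, which was 1.20-fold higher on cholesterol by means. No probe set under the table's limit carries a name. The Apoe difference was -0.36 without replicate 5 and -0.87 without replicate 4 of the standard-diet group. The Lrp1 difference was 0.18 without replicate 5 and 0.81 without replicate 4. The Mylip difference was -0.079 without replicate 4 and -1.39 without replicate 5.

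Replicate 4, the array with high Mylip, was also high in genes of microglia, the resident immune cells of the brain. Of 17 markers of microglia and macrophages 13 carried a name, and all 13 lay above the negative control median on that array against 4 to 8 on the other 6. Their summed level on the log2 scale was 16.00 in replicate 4. It was 13.39 in replicate 5, 13.06 to 13.86 on the cholesterol-diet arrays and 12.55 to 13.17 in wild type. Over the 7 arrays Mylip correlated with this sum at r = 0.957 (Spearman rho = 0.786), at r = 0.677 over the 6 arrays without replicate 4, and at r = 0.134 over the 5 arrays left without the 2 farthest from the median of Mylip, replicate 4 and wild-type replicate 3. Markers of endothelial and mural cells, of which 7 of 12 were named, summed to 13.50 to 13.72 in wild type, 13.84 to 14.12 on cholesterol and 14.00 to 14.38 with the standard-diet label. Their sum correlated with Mylip at r = 0.888, at 0.873 without replicate 4, and at 0.657 without the same 2 farthest arrays. Markers of both lists and Mylip carried a name only through a difference between the CETP groups, which a high replicate 4 alone can give. The counts and correlations are therefore a description, and the part of either list in the Mylip values was not tested. Apoe, which microglia also make, had r = 6.1e-05 with the microglial sum over the 7 arrays, -0.367 without replicate 4 and 0.136 without replicate 5. Deviations from the group means gave r = -0.857. In a group of 2 arrays these deviations are equal and opposite. Replicates 4 and 5 thus enter that value as 1 difference, which is wide for the marker sum (16.00 against 13.39).

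**Figure D3:**
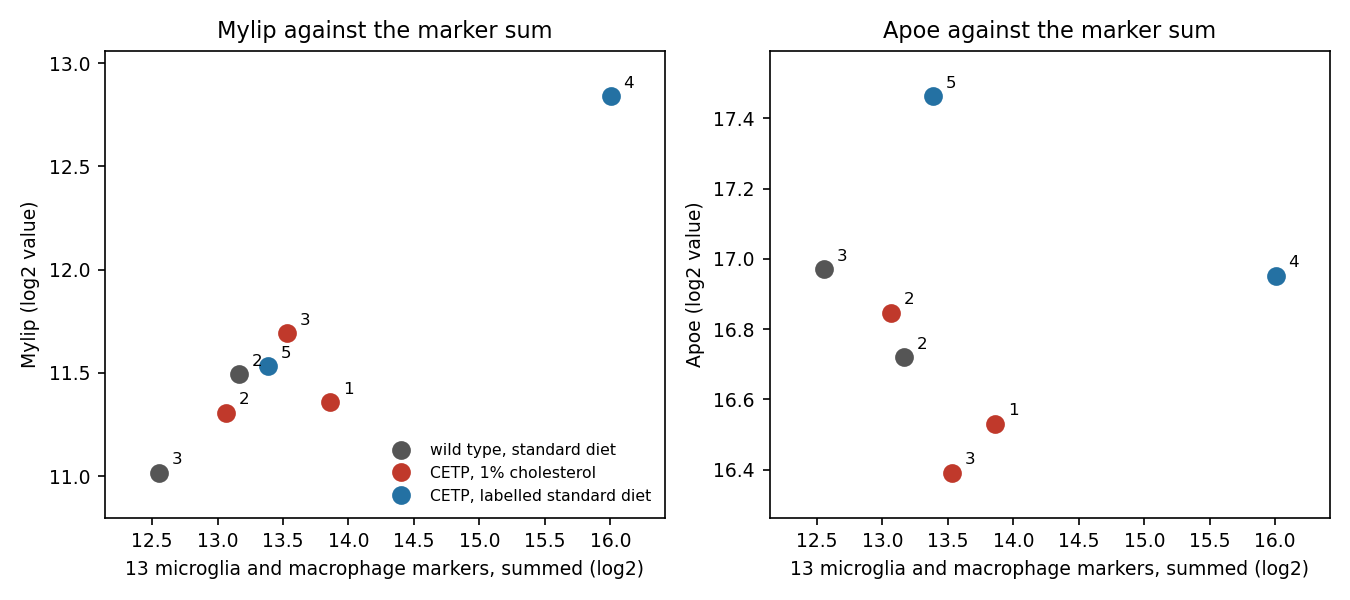
Mylip (left) and Apoe (right) as log2 values against the log2 of the summed level of 13 microglia and macrophage markers, 1 point for each of the 7 arrays, marked by replicate number. Replicate 4 of the CETP standard-diet group is alone at the right (16.00) and is highest for Mylip, while replicate 5 is highest for Apoe at a marker sum of 13.39.

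Of 56 genes listed for this pathway 11 carried a name, the members included. In each of the 3 comparisons with wild type 0 of the 11 passed limma in either direction. Their median log2 difference was 0.39 on cholesterol and -0.12 with the standard-diet label, where the medians of all features were -0.05 and -0.05. For the mean of all 5 CETP arrays 9 of 11 differences lay above 0 with a median of 0.19, where 42.7% of all features lay above 0. With the spike-in covariate 3 of 11 lay above 0 with a median of -0.21, where 44.1% of all features did, and the cholesterol-diet median turned to -0.069. These genes too were listed for a difference between the CETP groups.

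Lrp3, a family member of less well known function, measured 13.58 and 13.17 in wild type, 13.91, 13.49 and 14.41 on cholesterol, and 13.51 and 12.86 with the standard-diet label. Cholesterol-diet replicate 3 was again highest and standard-diet replicate 5 lowest. Lrp10 ran from 10.56 in cholesterol-diet replicate 2 to 11.72 in replicate 3. Sorl1, the sorting receptor that also binds apolipoprotein E, ran from 12.04 to 12.10 with the standard-diet label, 12.11 to 12.28 in wild type and 12.28 to 12.89 on cholesterol. For all 5 CETP arrays against wild type, Lrp3 differed by 0.26 (95% interval -0.38 to 0.90), Lrp10 by 0.30 (-0.39 to 0.98) and Sorl1 by 0.19 (-0.28 to 0.65). With the spike-in covariate these differences were -0.25, -0.35 and -0.21.

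Ldlrad3, a membrane protein with LDL receptor class A repeats, had the largest difference between all 5 CETP arrays and wild type of the pathway genes reported here. It measured 11.17 and 9.90 in wild type against 11.01 to 11.69 on the 5 CETP arrays, and only wild-type replicate 3 stood below the rest. The difference for all 5 CETP arrays was 0.82 (95% interval 0.11 to 1.53, adjusted p by limma 0.562). It was 0.19 without wild-type replicate 3 and 1.46 without replicate 2. Reln, a secreted ligand of this receptor family made by neurons, lay under the negative control median on every array (between -1.89 and -0.88), and its difference of 0.14 is one between values at that level.

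Among transcription factors of sterol and lipid supply, Srebf2, which encodes SREBP2, measured 15.38 and 14.99 in wild type, 15.88, 15.28 and 15.84 on cholesterol, and 15.23 and 14.73 with the standard-diet label. Srebf1, which drives fatty acid synthesis and is itself switched on by liver X receptors, measured 12.14 and 12.12, then 12.52, 12.09 and 12.98, and then 12.19 and 11.33 in the same order. For all 5 CETP arrays against wild type they differed by 0.21 (-0.34 to 0.76) and 0.09 (-0.57 to 0.74), and with the spike-in covariate by -0.068 and -0.27.

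**Figure D4:**
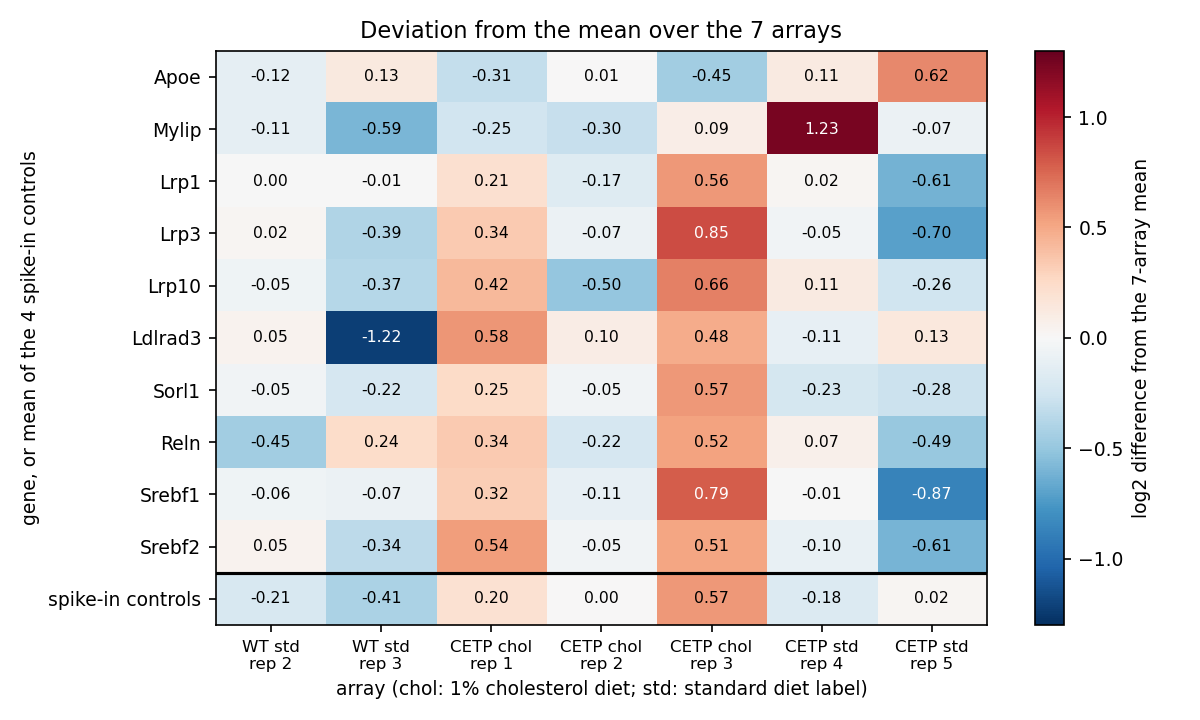
Deviation of each gene from its own mean over the 7 arrays (log2), 1 column for each array, with the mean of the 4 spike-in controls in the bottom row. Lrp1, Lrp3, Srebf1 and Srebf2 are high in cholesterol-diet replicate 3 (0.51 to 0.85) and low in CETP standard-diet replicate 5 (-0.87 to -0.61), where Apoe shows the opposite signs (-0.45 and 0.62).

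Apoe and Lrp1 mirrored each other across arrays. Over the 7 arrays their values correlated at r = -0.936 (Spearman rho = -0.821), and deviations from the group means at r = -0.927. Without the 2 arrays farthest from the median of Apoe, the correlation over the other 5 was -0.637. Mylip had r = 0.053 against Apoe and 0.101 against Lrp1 over the 7 arrays, and -0.224 and 0.208 without CETP standard-diet replicate 4. Deviations from the group means gave -0.886 and 0.793. In a group of 2 arrays such deviations, here and below, are equal and opposite. Replicates 4 and 5 thus enter as 1 difference, which is wide for Mylip (12.84 against 11.53). Lrp1 and Srebf1 stood in the same order on all 7 arrays (r = 0.991, rho = 1.0, and 0.904 without the 2 arrays farthest in Lrp1). Apoe and Srebf2 correlated at r = -0.954. These are descriptions over arrays that share their groups, and the names came from a table selected on 5 of them.

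**Figure D5:**
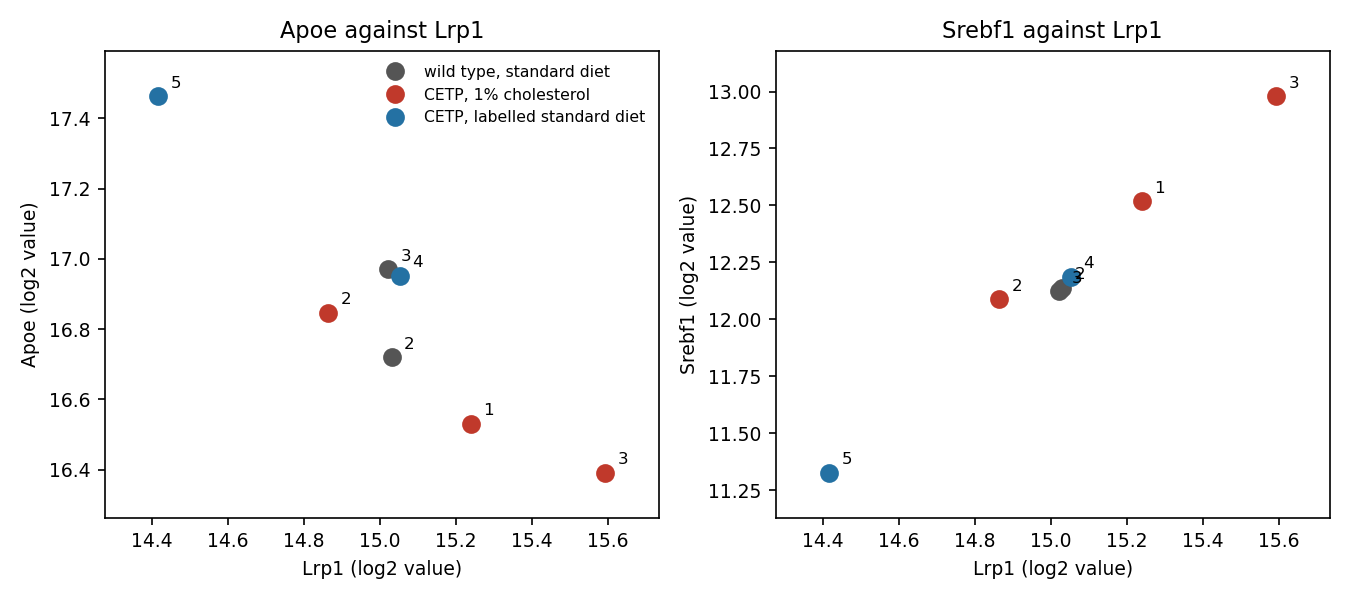
Apoe (left) and Srebf1 (right) against Lrp1 as log2 values, 1 point for each of the 7 arrays, marked by replicate number and coloured by group. The points fall along a descending line for Apoe (r = -0.936) and an ascending one for Srebf1 (r = 0.991), and cholesterol-diet replicate 3 and CETP standard-diet replicate 5 are the ends of both.

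Of 1019 named genes above the negative control level, all selected on a difference between the CETP groups, 147 correlated with Apoe above 0.8 and 121 below -0.8, and for Lrp1 the counts were 117 and 159. Over all 10729 features above that level, the shares past the same r of 0.8 were lower, at 3.32% and 2.67% for Apoe and 3.72% and 5.07% for Lrp1. The spike-in level correlated with Apoe at r = -0.53 and with Lrp1 at 0.511 over 7 arrays, and at -0.901 and 0.818 without CETP standard-diet replicate 5. Without replicate 4 of that group these correlations were -0.516 and 0.535, and deviations from the group means gave -0.415 and 0.461. Without the 2 arrays farthest from the median of the gene they were -0.783 and 0.386. The summed level of the 2 named astrocyte markers ran from 14.63 to 15.01 in wild type, 14.80 to 15.71 on cholesterol and 14.93 to 14.99 with the standard-diet label. It correlated with Apoe at r = -0.703 and with Lrp1 at 0.683, and at -0.928 and 0.851 without CETP standard-diet replicate 5. Without replicate 4 of that group the correlations were -0.698 and 0.692, and deviations from the group means gave -0.725 and 0.665. Without the 2 farthest arrays they were -0.884 and 0.827. Camk2a, the only named marker of 8 for neurons, ran from 8.20 to 8.21, 8.81 to 9.23 and 8.04 to 9.04 in the same order of groups, with r = -0.700 for Apoe and 0.700 for Lrp1. For the choroid plexus and ependyma 2 of 5 markers were named, Ttr and Kl, and their sum ran from 15.87 to 16.49, 15.00 to 16.71 and 16.18 to 16.67, with r = 0.436 and -0.529. Both lay above the negative control median only in cholesterol-diet replicate 1 and CETP standard-diet replicate 5. On the other arrays 1 of the 2 did, so there the sum rests on 1 marker. The part of the spike-in level in these relations was not tested beyond the covariate above, and that of the markers was not tested. The named genes most like Apoe over the 7 arrays were the deubiquitinase gene Otud6b (r = 0.985), the phosphodiesterase gene Pde7b (0.978) and Ttc1 (0.972). Those most opposed were Zbtb4 (-0.974), Fmn2 (-0.965) and Fah (-0.956). After Srebf1, Zbtb4 (0.972) and Fmn2 (0.962) were most like Lrp1, and Slc17a5 (-0.984), Ttll7 (-0.974) and Stam2 (-0.972) most opposed to it.

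Of the same 1019 named genes 54 correlated with Mylip above 0.8 and 2 below -0.8, as did 1.46% and 0.68% of the 10729 features. The named genes most like Mylip were Csf3r, the receptor for granulocyte colony-stimulating factor (r = 0.972), Ly86, a partner of an innate immune receptor (0.964), and the cytokine gene Il1b (0.958). Each was highest in CETP standard-diet replicate 4, with 10.92 for Csf3r against 7.24 to 8.71 on the other arrays. Il1b measured 8.95 there against 7.54 to 7.77 on the other 6 arrays, which is near the negative control medians. Csf3r and Il1b each lay under that median on 1 array. Without replicate 4 the mean of Il1b was 7.65, under the limit of 7.69 set for this likeness, and the correlations with Mylip were 0.798 for Csf3r, 0.834 for Ly86 and 0.660 for Il1b. Tmprss7 (-0.871) and Flrt2 (-0.852) were most opposed to Mylip among those reported here, and without replicate 4 they had r = -0.513 and -0.493. These genes and Mylip were all listed for a difference between the CETP groups, which replicate 4 alone can give.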

How the data were processed

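Values are log2 as deposited by the authors, 1 for each probe set on each array. How they corrected background, normalized and summarized is not given in the sources used here. Isolates were more than 70% GFAP-positive by flow cytometry, and 10 ng of total RNA entered labelling, per the labels' protocols. The signed fold score in the authors' deposited table was read only to find its groups. It equalled, within 0.0051, the difference of Tukey biweight averages (constant 5) of CETP standard-diet over CETP cholesterol-diet arrays for 98.5% of entries. Base 2 follows from that match.

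Of 28846 entries 22206 probe sets were kept and controls left out. Symbols came from the fold table. Of its 1778 entries 1526 matched a RefSeq gene (GRCm38.p6, names only) on the chromosome of the probe set's ID, 78 kept the file's name, 3 had no chromosome in the ID, and 171 were dropped. For several probe sets of a gene the highest mean was used. The single limma model (limma 3.58.1, R 4.3.3) had 3 group means over 7 arrays, with 4 residual and 5.39 prior degrees of freedom, two-sided tests and Benjamini-Hochberg adjustment at 0.05 over 22193 features. The test was checked on simulated data. With 7 arrays, precision is set by their number. Likeness was Pearson's r over 7 arrays, and the 3 highest and 3 lowest named genes above the negative control level are given for each member. Other steps used Python 3.11.15, pandas 2.3.3, numpy 2.4.6, scipy 1.17.1 and matplotlib 3.10.9. Members, lists and alternatives were chosen with earlier results of these data known. Values of 1 pathway gene and 1 gene opposed to Mylip are not reported here. Replicate numbers were not taken to pair animals.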

Additional observations from a re-analysis of the deposited data

Results flagged for a closer look

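The Mylip value of 12.84 in CETP standard-diet replicate 4 stood apart from the other 4 CETP arrays, with a gap to the next value of 0.748 of the whole range, above the critical value of 0.71 for 5 samples. Such a test marks about 1 group in 20 by chance, and 10 genes were examined in this way. Mylip was listed for a difference between the 2 CETP groups, and a high value on a standard-diet array is what that choice favours, so the mark is a description.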

How the results depend on the processing

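No member passed limma under any alternative run. The counts of 0 features held under every alternative but 2. In the cholesterol-diet comparison 7 features passed limma with the replicate block (smallest adjusted p = 8.11e-05). At an unadjusted p under 0.05 there were 1924 in the fit without the block. The block takes up the cholesterol-diet array whose number does not occur in wild type. Its differences therefore rest on the arrays of the 2 shared numbers. So few arrays leave too little to estimate the spread from, and no conclusion is drawn from these 7 features. In the standard-diet comparison leaving out single arrays gave 0 to 9 features. The replicate block left differences of -0.23 for Apoe, 0.20 for Lrp1 and 0.25 for Mylip. Same-numbered arrays deviated together at r = 0.0084 and 0.037, and only 2 numbers occur in both groups, so the numbers were not taken as pairs.

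With the spike-in covariate the cholesterol-diet differences turned to 0.016 for Apoe and -0.19 for Lrp1. For all 5 CETP arrays it turned Apoe (0.20), Lrp1 (-0.30), Lrp3 (-0.25), Lrp10 (-0.35), Sorl1 (-0.21), Reln (-0.011), Srebf1 (-0.27) and Srebf2 (-0.068). There Apoe also turned with array medians subtracted (0.019) and with equal weight for the CETP groups (0.054), as did Lrp1 with equal weight (-0.043) and with array weights (-0.0015), and Reln when floored at the negative control median (-0.0040). The cause was not tested.

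Leaving out single arrays moved the cholesterol-diet difference of Mylip between -0.041 and 0.44 and the standard-diet difference of Lrp1 between -0.61 and 0.027. For all 5 CETP arrays it moved Apoe between -0.16 and 0.12, Lrp1 between -0.13 and 0.16, Reln between -0.20 and 0.49 and Srebf1 between -0.10 and 0.31. Between the CETP groups it moved Mylip between -1.39 and -0.079. Where 1 array was left in a group, it was assumed to vary like the other groups. Within the first digit of the animal number, whose meaning the labels do not give, CETP cholesterol minus wild type was -0.19 and -0.35 for Apoe, 0.21 and 0.21 for Lrp1, and -0.14 and 0.48 for Mylip. Neither CETP standard-diet array shares that digit with any other array. In comparisons of that group, group and digit therefore cannot be told apart. The fit with the 5 CETP arrays as 1 group was added after seeing the data and left all signs as they were.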
